A study of Homo sapiens with 21 samples.

Results

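Argonaute binding clusters annotated at gene starts were examined in HK-2 cells, an immortalised epithelial line from the proximal tubule of human kidney. Every cluster whose annotation read promoter-TSS was taken from 3 deposited PAR-CLIP lists, 3425 of 113103 clusters in all. The list for AGO2 in vehicle-treated cells gave 1790 of its 56985 clusters (3.14%), the list for AGO2 with cyclosporine A gave 1047 of 36812 (2.84%, 95% Wilson interval 2.68% to 3.02%) and the pan-AGO list, from an antibody against every Argonaute protein, gave 588 of 19306 (3.05%). The clusters were split by the gene symbol the lists attach to them, which is that of a nearby start site: microRNA (miRNA) loci, with symbols that open with MIR, small nucleolar RNA (snoRNA) loci, with symbols that open with SNOR, and all other genes. The vehicle list held 100, 80 and 1610 clusters of these classes, the cyclosporine A list 88, 64 and 895, and the pan-AGO list 27, 4 and 557. Intervals on shares cover counting error only.

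Treatment was with 5 µg/mL cyclosporine A, or with 0.1% ethanol as vehicle, and lasted 24 h before PAR-CLIP and 48 h before RNA sequencing. All PAR-CLIP cultures also received 100 µM 4-thiouridine and were crosslinked at 365 nm (0.15 J/cm2). The labels name 2 AGO2 libraries per treatment, which share 1 list per treatment, so clusters carry no replicate check, and they name 1 library for all Argonaute proteins without giving its treatment. Small RNA and polyadenylated RNA were each sequenced from 4 vehicle and 4 cyclosporine A libraries of this 1 line. Total counts per library ran from 6664231 to 9184278 for miRNA and from 3965431 to 7041604 for mRNA, with hsa-miR-21-5p making up 54.7% to 62.6% of each small RNA library. Nothing in the labels tells whether each library is its own culture, and the p-values below therefore reflect only library-to-library spread, possibly technical.

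Argonaute proteins hold a mature miRNA and use its seed, bases 2 to 8, to pair with target RNA. A miRNA is cut from a longer transcript, first to a hairpin by DROSHA and DGCR8 in the nucleus, then by DICER1 in the cytoplasm, and usually 1 arm of the duplex is kept. In PAR-CLIP, 4-thiouridine built into new RNA is joined to the bound protein by ultraviolet light, so both the targets and the miRNAs themselves can be recovered. Cyclosporine A is an immunosuppressant that blocks the phosphatase calcineurin and can injure the proximal tubule.

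Clusters under MIR symbols were first read against the mature miRNAs of RefSeq (GRCh38.p14), since a cluster on a miRNA gene can be the miRNA itself. Of the 100 clusters in the vehicle list, 18 shared a run of at least 16 bases with a mature miRNA (18.0%, 11.7% to 26.7%), and 6 held its whole sequence. Of the 88 clusters in the cyclosporine A list, 21 shared such a run (23.9%, 16.2% to 33.7%), and 2 held the whole sequence. Outside promoter-TSS the same run was found in 13 of 55195 vehicle clusters (0.0236%) and 14 of 35765 cyclosporine A clusters (0.0391%). Promoter-TSS clusters were 22 of the 35 matched clusters of the vehicle list (62.9%) and 25 of the 39 of the cyclosporine A list (64.1%). The matched clusters under MIR symbols covered 29 symbols and 28 miRNAs over both AGO2 lists, and these miRNAs fall into groups with a common seed. The let-7 group (let-7a-5p, let-7b-5p, let-7c-5p and let-7f-5p, with let-7i-5p under LINC01465, a symbol of another class) carries GAGGUAG. The mature sequences that the results below turn on follow, 5′ to 3′, with the seed in capitals.
hsa-miR-21-5p: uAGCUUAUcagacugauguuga
hsa-miR-22-3p: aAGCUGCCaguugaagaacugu
hsa-miR-93-5p: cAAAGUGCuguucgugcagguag
hsa-miR-106b-5p: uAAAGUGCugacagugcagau
hsa-miR-25-3p: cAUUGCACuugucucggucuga
hsa-miR-92a-3p: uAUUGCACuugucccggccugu
hsa-miR-221-3p: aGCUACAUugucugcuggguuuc
hsa-miR-222-3p: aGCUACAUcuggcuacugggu
hsa-miR-27a-3p: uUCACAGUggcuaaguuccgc
hsa-miR-24-3p: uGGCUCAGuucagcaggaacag
hsa-miR-10a-5p: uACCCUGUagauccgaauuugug
hsa-let-7a-5p: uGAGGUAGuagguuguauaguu
hsa-miR-4485-3p: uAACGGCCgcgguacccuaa
The pairs miR-93-5p and miR-106b-5p, miR-25-3p and miR-92a-3p, and miR-221-3p and miR-222-3p each have 1 seed in common, as do miR-30a-5p with miR-30c-5p and miR-19a-3p with miR-19b-3p.

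The symbol on a cluster often named a neighbour of the miRNA whose sequence the cluster held. Clusters under MIR25 lay in the miR-106b, miR-93 and miR-25 gene group of chromosome 7, and 3 different miRNAs of that group appeared, 1 in the vehicle list and 2 in the cyclosporine A list. Clusters under MIR24-2 held miR-27a-3p in 1 list and miR-24-3p in the other, and clusters under MIR221 held miR-222-3p in 1 list and miR-221-3p in the other. The cluster under MIR4763 held let-7a-5p, and the cluster under MIR3074 held miR-24-3p, encoded on the strand opposite to the MIR3074 hairpin. They are printed here as the lists give them, in DNA letters on the cluster's own strand with hg19 positions, and capitals mark the seed of the miRNA named.
MIR21 in vehicle (chr17:57918635-57918660, plus strand, seed of miR-21-5p): AGCTTATcagactgatgttgactgtt
MIR22 with cyclosporine A (chr17:1617209-1617229, minus strand, seed of miR-22-3p): aAGCTGCCagttgaagaactg
MIR25 in vehicle (chr7:99691438-99691460, minus strand, seed of miR-93-5p): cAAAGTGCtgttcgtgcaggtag
MIR25 with cyclosporine A (chr7:99691662-99691686, minus strand, seed of miR-106b-5p): tAAAGTGCtgacagtgcagatagtg
MIR25 with cyclosporine A (chr7:99691195-99691215, minus strand, seed of miR-25-3p): cATTGCACttgtctcggtctg
MIR24-2 in vehicle (chr19:13947262-13947281, minus strand, seed of miR-27a-3p): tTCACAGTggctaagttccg
MIR24-2 with cyclosporine A (chr19:13947103-13947124, minus strand, seed of miR-24-3p): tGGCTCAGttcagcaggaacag
MIR221 in vehicle (chrX:45606440-45606462, minus strand, seed of miR-222-3p): aGCTACATctggctactgggtct
MIR221 with cyclosporine A (chrX:45605610-45605630, minus strand, seed of miR-221-3p): aGCTACATtgtctgctgggtt
MIR4763 with cyclosporine A (chr22:46508633-46508655, plus strand, seed of let-7a-5p): GAGGTAGtaggttgtatagtttg
MIR3074 with cyclosporine A (chr9:97848347-97848368, plus strand, seed of miR-24-3p): GGCTCAGttcagcaggaacagg
MIR4485 in vehicle (chr11:10529824-10529845, minus strand, seed of miR-4485-3p): tttAACGGCCgcggtaccctaa

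The edges of most matched clusters followed the ends of the mature miRNA. Of the 39 matched clusters, 38 contained the whole seed. In the vehicle list 10 of 18 began the match at base 1 of the miRNA and 7 at base 2, and in the cyclosporine A list 9 of 21 and 12. The match ran to the last base of the miRNA in 13 clusters of each list, and stopped 1 base short in 5 and 7. Median cluster widths were 22.5 and 21 bases. Wider clusters were exceptions. The vehicle cluster on MIR30A, 42 bases wide, had 19 bases before the miRNA. That on MIR4647, 43 bases wide, began the match at base 5 and had 24 bases after it. MIR19B1 in vehicle had 13 bases after the match, and MIR21 with cyclosporine A had 12. The mature sequence is encoded at more than 1 place for miR-24-3p, miR-19b-3p, miR-92a-3p, let-7a-5p, let-7f-5p, miR-30c-5p, miR-16-5p and miR-128-3p. For these the lists cannot tell which copy gave the RNA.

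At most loci the cluster held the arm that was more abundant in the small RNA libraries. Of 24 symbols matched to their own miRNA, 21 had another arm in the RefSeq table, and the arm in the cluster had the higher mean CPM (counts scaled to library size) at 20 of them. At MIR30A the miR-30a-5p arm in the cluster had 82967 CPM against 2823 CPM for miR-30a-3p. For MIR16-2 the 2 values were closer, 871.8 CPM for miR-16-5p against 670.5 CPM for miR-16-2-3p. A mature form encoded at more than 1 place, miR-16-5p among them, is counted over all its copies, whereas the other arm can be specific to 1 copy. At such loci the comparison can favour the arm in the cluster and does not give the arm ratio of the locus. MIR200B was the exception, with miR-200b-5p in the cluster at 38.3 CPM and the other arm, miR-200b-3p, at 7398 CPM.

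Sequence also placed other MIR clusters with abundant RNAs that are not miRNAs. Kinship here means a run of 18 bases in common with clusters that the same lists annotate as ribosomal RNA (rRNA), transfer RNA (tRNA) or other small structural RNA, or that lie on the mitochondrial chromosome, and a cluster with the B box letters of a tRNA gene, described below, was also counted as tRNA-like. In the vehicle list 13 of 100 MIR clusters matched their own miRNA, 4 another miRNA, 3 were kin to rRNA, 8 to mitochondrial RNA and 2 were tRNA-like, and 70 matched none of these. In the cyclosporine A list the counts were 15, 6, 5, 7, 2 and 53 of 88. The rRNA-like clusters were few but held 95.4% and 96.2% of the summed peak score of MIR clusters, against 2.75% and 1.47% for those that matched nothing. Scores are the authors' own and of unstated unit, and are compared only within a list.

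**Figure D1:**
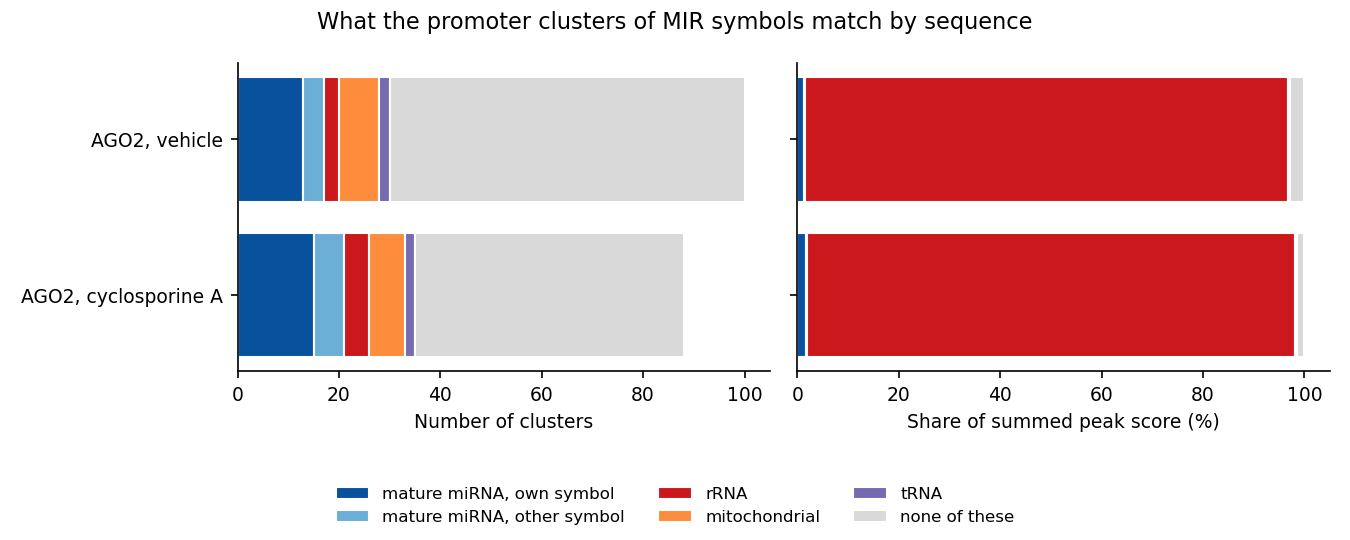
Promoter-TSS clusters under MIR symbols in the 2 AGO2 lists, coloured by the RNA their sequence matches. The left panel counts clusters, of which 70 of 100 in vehicle and 53 of 88 with cyclosporine A match none of the kinds, and the right panel gives the share of summed peak score (%), of which rRNA-like clusters hold 95.4% and 96.2%.

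MIR6087 had the highest MIR score in all 3 lists, and its clusters in the AGO2 lists shared sequence with the large-subunit rRNA. A single vehicle cluster of 484 bases had a score of 286208, which is 24.9% of the score of all promoter-TSS clusters of that list. Its 2 cyclosporine A clusters made up 29.1% and its 2 clusters in the pan-AGO list 21.4%. MIR7641-2 came next in each list, with clusters on chromosomes 5 and 6 that were kin to 5S rRNA in the AGO2 lists, and summed scores of 19021, 27561 and 1194. MIR21 was the highest MIR symbol with a miRNA match, at 2370 in vehicle and 3315 with cyclosporine A, where it reached position 57918667.

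The remaining high-scoring MIR symbols mostly did not hold a miRNA. MIR4521 had 2 clusters in each AGO2 list, summing to 1172 and 2081. In each list 1 of the 2 was kin to clusters annotated as leucine tRNA, and neither held miR-4521. MIR526A2 (1308, 793 and 299 in the 3 lists) lay on the strand opposite to its hairpin, as did MIR3619 (944 in vehicle, 73 with cyclosporine A). Clusters under MIR548A2 (1696 in vehicle) and MIR4507 (1846 with cyclosporine A) matched none of the kinds. MIRLET7B (940 in vehicle) held let-7b-5p. MIR22 held miR-22-3p with a score of 2284 in the cyclosporine A list, whereas the vehicle cluster under that symbol (chr17:1617700-1617722, score 144) lay at another position and matched no miRNA. The other high-scoring MIR symbols of the pan-AGO list were MIR7641-1, MIR601, MIR184, MIR3187 and MIR216B, with scores from 89 to 160.

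Loci whose clusters held their own miRNA had higher miRNA levels than loci whose clusters held none. The 14 vehicle loci that held their own miRNA had a median level of 1585 CPM, summed over the mature forms that RefSeq ties to the locus. The 15 cyclosporine A loci had a median of 3327 CPM. The 14 include MIR4485, whose matched cluster was counted above as kin to mitochondrial RNA. Where the cluster held no miRNA, the median was 0.0666 CPM over 46 vehicle loci, 39 of them under 1 CPM, and 0.0354 CPM over 37 cyclosporine A loci, 29 of them under 1 CPM. One vehicle locus with a match, MIR4647, was also under 1 CPM. In the other direction, MIR423 and MIR22 had no match in vehicle and levels of 7448 and 4692 CPM. MIR6087, MIR7641-2 and MIR548A2 are not among these loci, because the RefSeq table ties no mature form to them. The 64 vehicle and 56 cyclosporine A loci used here come from 82 and 71 MIR symbols, and leave out the highest-scoring, MIR6087 and MIR7641-2. By name, miR-6087 was counted at 246 to 531 CPM over the 8 libraries, and miR-7641 and miR-548a-3p had means of 4.83 and 2.97 CPM. Across loci the Spearman correlation of summed peak score with miRNA level was 0.26 over 64 loci in vehicle and 0.60 over 56 loci with cyclosporine A, and 0.29 (n = 14) and 0.28 (n = 15) among loci with their own match. All loci of a list come from the same pooled libraries, so these values are descriptions.

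**Figure D2:**
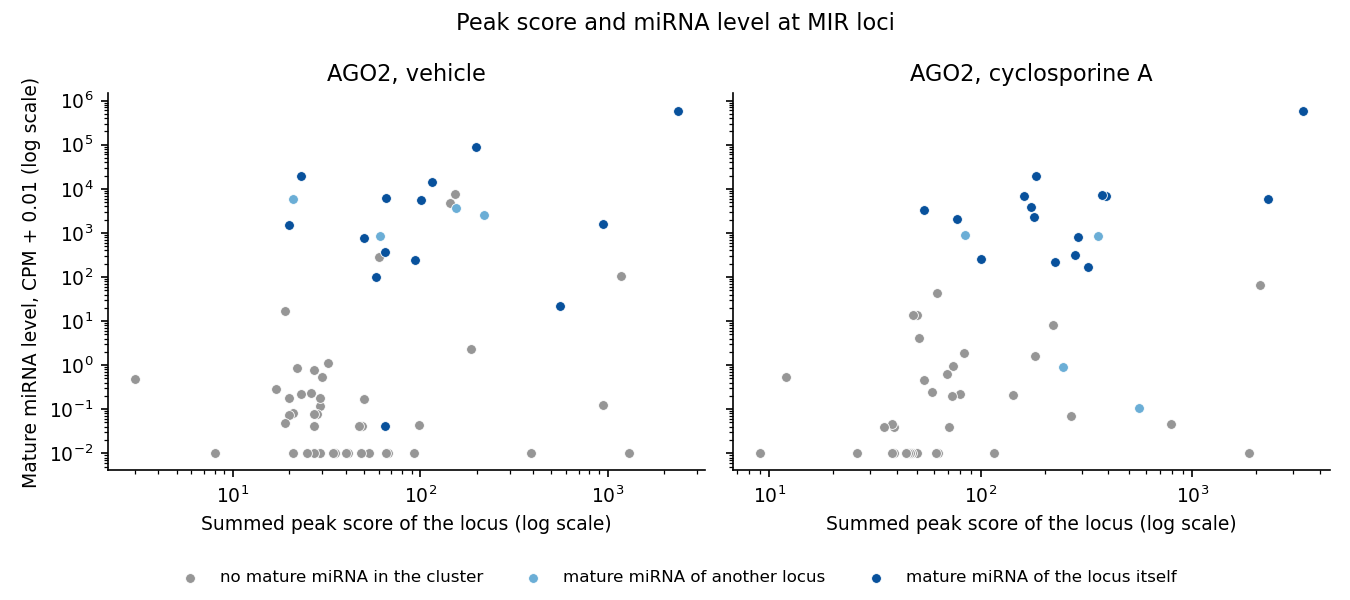
Summed peak score of each MIR locus (x axis, log scale) against the summed level of its mature miRNAs (y axis, CPM + 0.01, log scale) in the matching treatment. Points are loci, dark blue where the cluster held the locus's own miRNA (median 1585 CPM in vehicle, 3327 CPM with cyclosporine A), light blue for a miRNA of another locus and grey for none (medians under 0.1 CPM).

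The 28 miRNAs found in clusters made up 75.3% to 78.4% of the miRNA counts of a vehicle library and 75.8% to 80.2% of a cyclosporine A library. The 27 others, without miR-21-5p, made up 17.5% to 20.6% of the same library totals, which still include the miR-21-5p counts. They included 9 of the 20 most abundant miRNAs.

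Changes of these miRNAs after 48 h of cyclosporine A were tested with edgeR over all miRNAs, and an adjusted p under 0.05 is a call. The 133 MIR symbols of the 3 lists gave 108 that matched RefSeq hairpins with mature forms in the count table, 177 mature miRNAs in all, of which 65 passed the filter on low counts. Of these 65, 5 rose (7.69%) and 4 fell (6.15%). Over all 470 tested miRNAs, 4.89% rose and 6.38% fell. The median log2 fold change was -0.01 for the 65 and 0.01 for all. Groups did not overlap for 13 of the 65 and for 76 of the 470. The RefSeq table lacks some arms, and with every mature miRNA of the count table named after a MIR symbol of the lists, 74 were tested, of which 5 rose and 7 fell. The 3 added falls were miR-4485-5p, miR-4461 and miR-3687. Of the 27 tested miRNAs whose sequence lay in a cluster, 2 rose (miR-27a-3p and miR-19a-3p) and 2 fell (miR-10a-5p and miR-4485-3p). Without vehicle replicate 3 the calls over all miRNAs went to 14 higher and 15 lower, and without vehicle replicate 4 the 5 rises among members went to 8.

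The most abundant members did not separate the treatments, except for miR-10a-5p. miR-21-5p, a miRNA raised in many injured tissues, had 618752, 514769, 607263 and 642081 CPM in vehicle libraries 1 to 4 and 475793, 502603, 723314 and 676553 CPM in cyclosporine A libraries 1 to 4. These CPM are scaled by effective library size, so they exceed the raw share. The log2 fold change of miR-21-5p was -0.00 ± 0.13 (SE) with an adjusted p of 0.991. miR-30a-5p, let-7f-5p and let-7a-5p had log2 fold changes of -0.06 ± 0.11, 0.07 ± 0.11 and -0.04 ± 0.12 and overlapping groups. The signs of the first, second and last of these 4 small changes depended on the library left out or on the scaling. miR-10a-5p, encoded within the HOXB gene group, was at 19951, 17808, 19815 and 19080 CPM in vehicle and at 12478, 11946, 15308 and 15505 CPM with cyclosporine A. Every vehicle library was above every cyclosporine A library, and the log2 fold change was -0.47 ± 0.11 (adjusted p 0.00976).

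Of 2 miRNAs encoded side by side on chromosome 19, whose clusters appear in different lists, 1 rose. miR-27a-3p, found in the vehicle cluster of MIR24-2, had 1969, 2159, 2051 and 2502 CPM in vehicle and 2779, 2674, 3055 and 2916 CPM with cyclosporine A, without overlap. Its log2 fold change was 0.40 ± 0.11 (adjusted p 0.0235), and the call was lost without vehicle replicate 1 or 3 (highest adjusted p 0.0743). miR-24-3p, found in the cyclosporine A cluster, had means of 3757 ± 28.7 and 3735 ± 128 CPM (SD, n = 4 each) and a log2 fold change of -0.01 ± 0.10. Its libraries overlapped between the treatments.

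miR-19a-3p, from the miR-17-92 gene group linked to cell growth, was the other sequence-matched rise. Its values were 130, 146, 140 and 178 CPM in vehicle and 216, 202, 213 and 204 CPM with cyclosporine A, again without overlap, with a log2 fold change of 0.50 ± 0.13 (adjusted p 0.0166), a call lost without vehicle replicate 3 (adjusted p 0.0579). Its seed partner miR-19b-3p went from 242 ± 25.6 to 307 ± 34.6 CPM and did not pass (log2 fold change 0.35 ± 0.13, adjusted p 0.0901). For the MIR22 locus, miR-22-3p went from 4265, 5116, 4456 and 4948 CPM to 6130, 5605, 5825 and 5645 CPM. The groups did not overlap, but the log2 fold change of 0.30 ± 0.10 missed the threshold (adjusted p 0.0637), which it passed in 4 of 13 alternatives. The other arm of that hairpin, miR-22-5p, was in no cluster and rose from 48.1 ± 3.03 CPM to 71.8 ± 6.52 CPM (log2 fold change 0.58 ± 0.13, adjusted p 0.0068).

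The pairs with a common seed and clusters in different lists showed no call. miR-93-5p, in a vehicle cluster, had means of 2053 ± 256 and 1874 ± 315 CPM, and miR-106b-5p, in a cyclosporine A cluster, 260 ± 28.2 and 272 ± 16.9 CPM. miR-222-3p, in a vehicle cluster, had 8773 ± 661 and 10886 ± 1909 CPM (adjusted p 0.121), and miR-221-3p, in a cyclosporine A cluster, 5908 ± 745 and 6921 ± 588 CPM (adjusted p 0.22). A miss of the threshold does not show that the levels were equal.

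**Figure D3:**
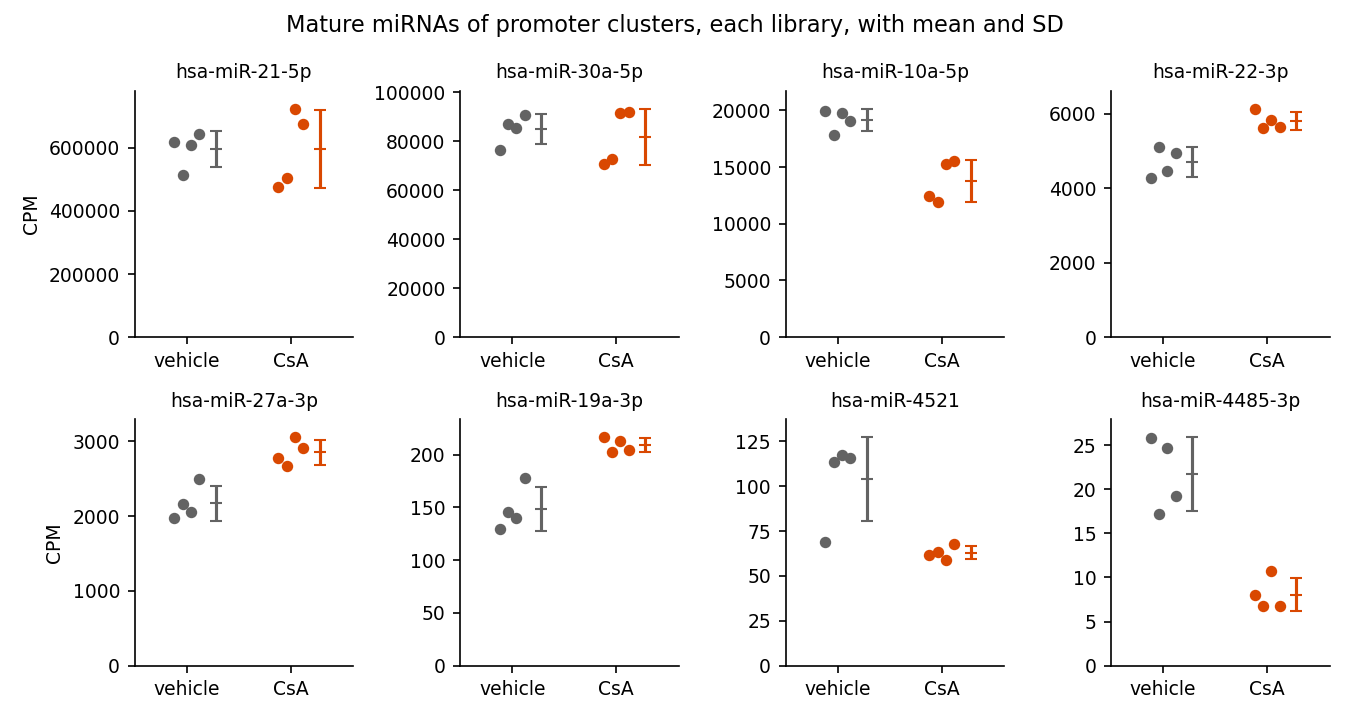
Levels of 8 mature miRNAs of promoter-TSS loci in each small RNA library (y axis, CPM from 0), vehicle in grey and cyclosporine A in orange, with mean and SD over 4 libraries beside the points. miR-21-5p and miR-30a-5p overlap between treatments, whereas the 4 cyclosporine A libraries lie apart from the 4 vehicle libraries for the other 6. The 8 were picked for display: groups did not overlap for 13 of the 65 tested members and 76 of all 470 tested miRNAs.

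The largest changes, with miRNAs tied by name included, were falls of low-abundance miRNAs. miR-4485-3p was at 25.8, 17.2, 24.7 and 19.3 CPM in vehicle and at 7.96, 6.79, 10.7 and 6.73 CPM with cyclosporine A, with a log2 fold change of -1.43 ± 0.19 (adjusted p 5.79e-05). Its MIR4485 cluster was kin to mitochondrial clusters, so reads of mitochondrial RNA and of this miRNA cannot be told apart by sequence here. The other arm, miR-4485-5p, tied to the locus by name, was at 3.49, 7.48, 5.97 and 7.40 CPM in vehicle and at 1.43, 1.11, 1.01 and 0.939 CPM with cyclosporine A, with a log2 fold change of -2.39 ± 0.29 (adjusted p 2.34e-05). Also tied by name, miR-4461 fell from 3.53 ± 0.503 to 1.07 ± 0.155 CPM (-1.72 ± 0.25, adjusted p 0.000246). miR-3687 fell from 39.8 ± 5.85 to 20.3 ± 2.55 CPM (-0.98 ± 0.15, adjusted p 0.000278). A smaller fall was that of miR-4521, from 69.1, 113.5, 117.5 and 116.0 CPM to 61.4, 63.5, 59.2 and 67.9 CPM. Its log2 fold change was -0.72 ± 0.16 (adjusted p 0.00683), with vehicle library 1 close to the cyclosporine A values.

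Further calls fell on arms other than the one in the cluster, or on loci of the pan-AGO list, whose sequences were not searched. miR-193a-3p rose from 8.38 ± 1.55 to 14.1 ± 1.84 CPM (log2 fold change 0.75 ± 0.18), whereas the arm in the cluster, miR-193a-5p, did not pass (0.30 ± 0.15, adjusted p 0.224). miR-92a-1-5p rose from 12.1 ± 1.48 to 19.2 ± 4.75 CPM (0.67 ± 0.18), with miR-92a-3p in the cluster, and the call was lost without cyclosporine A replicate 3 (adjusted p 0.0593). miR-139-5p, whose locus had a cluster in the pan-AGO list, rose from 49.0 ± 4.37 to 70.8 ± 8.71 CPM (0.53 ± 0.13). miR-130b-5p, likewise from that list, fell from 101 ± 9.59 to 68.0 ± 14.9 CPM (-0.58 ± 0.16). That call was lost without vehicle replicate 1 or 3, or cyclosporine A replicate 2 or 4, with adjusted p values of 0.0539 to 0.0613.

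**Figure D4:**
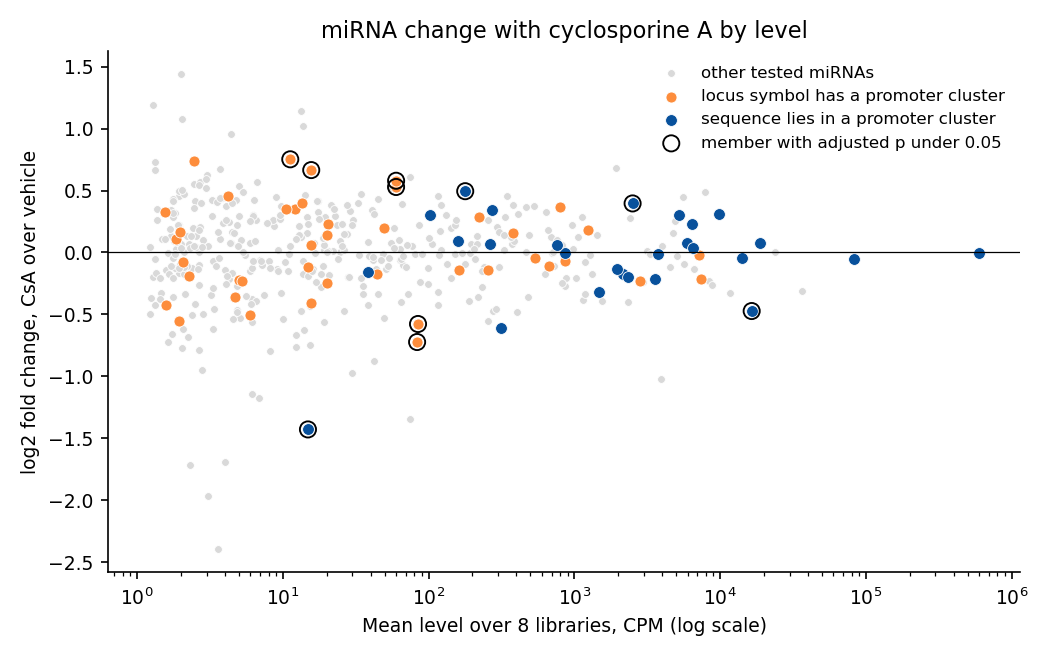
log2 fold change of each tested miRNA, cyclosporine A over vehicle (y axis), against its mean level over 8 libraries (x axis, CPM, log scale). Blue points are miRNAs whose sequence lies in a promoter cluster (median 2340 CPM) and orange points those tied by symbol alone (median 17.9 CPM). Black rings mark blue or orange points with an adjusted p under 0.05. They are 5 higher and 4 lower by symbol, and miR-27a-3p, higher and tied by sequence only.

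Clusters under SNOR symbols carried letters of snoRNAs themselves. Box C/D snoRNAs guide the methylation of rRNA, are cut from introns of host genes and carry a box C (letters TGATGA searched) near the front and a box D (CTGA) near the end. Box C letters occurred in 17 of 56 vehicle clusters under SNORD symbols (30.4%, 19.9% to 43.3%), against 14 of 1610 clusters of other genes (0.870%) and 670 of 55195 clusters outside promoter-TSS (1.21%). In the cyclosporine A list the counts were 8 of 41 (19.5%), 9 of 895 (1.01%) and 473 of 35765 (1.32%). Box D letters occurred in 42 of 56 (75.0%) and 29 of 41 (70.7%) of SNORD clusters, against 11.2% and 12.4% for other genes and 14.2% and 15.0% outside promoter-TSS. Both searches used the cluster's own strand, and the letters of box D can overlap other motifs. SNORD clusters were wider, with median widths of 34.5 and 25 bases against 20, which raises the share that can hold a motif. Of 35116 RefSeq promoter windows of 300 bases, 10.9% held box C letters and 91.1% box D letters on either strand.

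The top SNOR symbols were the same in both AGO2 lists: SNORD50A, SNORD81 and SNORD37. Their highest clusters in the vehicle list are shown because each holds box D letters, in capitals, at or near its end.
SNORD50A (chr6:86387011-86387035, minus strand): ttttacggatctggcttCTGAgatg
SNORD81 (chr1:173833970-173833993, minus strand): aagtctttcgctcctatCTGAtgt
SNORD37 (chr19:3982507-3982552, minus strand): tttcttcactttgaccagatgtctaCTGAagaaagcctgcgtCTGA
Summed scores of SNORD50A, SNORD81 and SNORD37 were 1263, 1117 and 886 in vehicle and 1557, 1802 and 999 with cyclosporine A. SNOR clusters held 1.18% and 0.877% of the promoter-TSS score. SNOR clusters were 4.47% of vehicle and 6.11% of cyclosporine A promoter-TSS clusters, and 0.680% (4 of 588) in the pan-AGO list. Of the 4, SNORD81 at a different position (chr1:173833509-173833548, score 1548) and SNORA25 had the highest scores. The cluster under SNORD43 shared 16 bases with miR-5701 in both AGO2 lists.

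Host transcripts of these snoRNAs were higher with cyclosporine A. The hosts are named from background knowledge and were looked up after values were seen. GAS5, the noncoding host of SNORD81, rose from 143, 143, 134 and 141 CPM in vehicle to 278, 290, 288 and 254 CPM with the drug (log2 fold change 0.99 ± 0.06). SNHG5, host of SNORD50A, rose by 1.02 ± 0.12 and EEF2, an elongation factor gene that hosts SNORD37, by 0.61 ± 0.06. All 3 have groups that do not overlap, as do 7444 of 12855 tested genes.

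Few clusters of other genes were kin to structural RNA, but rRNA-like clusters held 47.4% of the class's score in vehicle and 54.4% with cyclosporine A, and tRNA-like clusters 10.6% and 8.92%. Clusters that matched none of the kinds held 39.8% and 34.7%, among them a further LINC00273 cluster with scores of 86234 and 148201. LINC00273 on chromosome 16 had 41.4%, 46.1% and 36.6% of the promoter-TSS score of the 3 lists. Its 6 clusters in each AGO2 list lay on the strand opposite to the gene, and 3 of them were kin to the small-subunit rRNA. In the vehicle list 45 of 1610 clusters of other genes were tRNA-like, 26 kin to mitochondrial RNA, 3 to rRNA and 4 to other small structural RNA, and 1530 matched none. In the cyclosporine A list these counts were 40, 25, 3, 3 and 822 of 895. The tRNA-like clusters had median scores of 589 and 531.5, against 46 and 72 for those that matched none.

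tRNA genes carry their promoter inside the gene, and its B box (searched as GTTCGA, any 2 bases, then C, on the cluster strand) lies in the T arm of the tRNA. The B box letters occurred in 39 of 1610 vehicle clusters of other genes (2.42%, 1.78% to 3.29%) and 32 of 895 cyclosporine A clusters (3.58%, 2.54% to 5.00%), against 0.476% and 0.528% outside promoter-TSS. They occurred in 291 of 35116 RefSeq promoter windows on either strand. Since these letters also count a cluster as tRNA-like, they are no separate evidence for that class. The examples below are clusters of named symbols, with the B box in capitals. An amino acid named there is the annotation of other clusters that share a run with the cluster called kin. It does not name the tRNA that the printed sequence belongs to, which was not tested.
METTL26 with cyclosporine A (chr16:686734-686805, minus strand, kin to glutamate and glycine tRNA): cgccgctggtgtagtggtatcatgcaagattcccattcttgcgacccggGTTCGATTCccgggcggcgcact
AGBL5 in vehicle (chr2:27273699-27273751, plus strand, tRNA-like by its B box alone, beside a cluster kin to tyrosine tRNA): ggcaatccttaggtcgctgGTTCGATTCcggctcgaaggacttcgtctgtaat
MIR4521 with cyclosporine A (chr17:8090185-8090271, plus strand, kin to leucine tRNA): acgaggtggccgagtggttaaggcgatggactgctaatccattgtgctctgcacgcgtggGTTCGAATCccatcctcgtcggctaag
AGBL5, which encodes a tubulin deglutamylase, had summed scores of 19534 and 21668 in the AGO2 lists. METTL26 had 9915 and 16384, DPP9, a dipeptidyl peptidase gene, 10539 in vehicle, and ALOXE3, a lipoxygenase gene, 9756 with cyclosporine A. The mRNAs of AGBL5 and METTL26 did not pass the test (log2 fold changes -0.11 ± 0.07 and 0.07 ± 0.09). ALOXE3 rose by 2.14 ± 0.32 from a low level of 1.05 ± 0.333 CPM, and DPP9 by 0.28 ± 0.06.

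Clusters of other genes lay on either strand of the gene about equally often. The gene strand held 584 of 1200 vehicle clusters with a known strand (48.7%, 45.8% to 51.5%), 315 of 665 with cyclosporine A (47.4%) and 199 of 426 in the pan-AGO list (46.7%). In the AGO2 lists the shares were 76.1% and 73.9% in 5′ UTRs, 62.0% and 64.6% in exons, and 63.1% and 69.1% in 3′ UTRs. Near-equal strands were not particular to promoters. The AGO2 shares were 54.2% and 55.2% in introns, and 52.6% and 53.4% at transcript ends (TTS). In the pan-AGO list 5′ UTRs had 52.4%, exons 52.9% and 3′ UTRs 57.6%. MIR clusters with a miRNA match lay on the hairpin strand in 18 of 18 vehicle and 19 of 20 cyclosporine A clusters, and those that matched none of the kinds in 30 of 49 and 26 of 35. The exception among matched clusters was the one under MIR3074, described above.

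**Figure D5:**
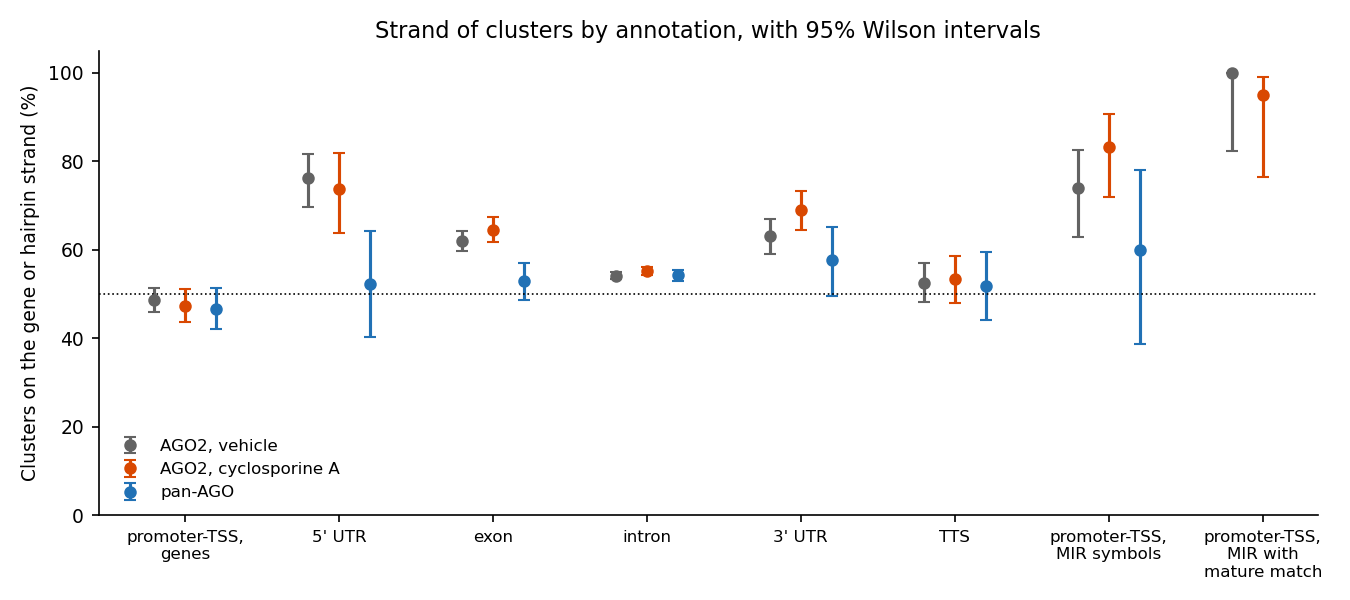
Share of clusters on the strand of the gene or hairpin (y axis, %) by annotation class, with 95% Wilson intervals, for AGO2 in vehicle (grey), AGO2 with cyclosporine A (orange) and pan-AGO (blue). Promoter-TSS clusters of genes sit at 48.7%, 47.4% and 46.7%, near the dotted line of equal strands, and MIR clusters with a mature match at 18 of 18 and 19 of 20.

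Some clusters could be placed by sequence within a RefSeq promoter window, from 250 bases before to 50 after the start. Among these, sense clusters had a median nearer to the start, a difference that was not tested. The window reaches further before the start than after it, which itself gives negative medians. The window placed 262 of 1610 vehicle clusters of other genes, with median distances of -47.5 bases for 140 sense and -121.5 bases for 122 antisense clusters. With cyclosporine A 141 of 895 were placed, at -60.5 bases for 74 sense and -95 bases for 67 antisense clusters. In the vehicle list 47 of the 140 sense clusters lay after the start.

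Sites for the 10 leading miRNA seed families were uncommon in these clusters and in clusters of the other annotations searched. A site is the reverse complement of seed bases 2 to 8. It occurred in 4 of 563 vehicle promoter-TSS clusters on the gene strand (0.710%, 0.277% to 1.81%) and in 7 of 363 clusters in 3′ UTRs on the gene strand (1.93%, 0.937% to 3.93%). With cyclosporine A the counts were 2 of 301 and 4 of 279. On the gene strand of introns the shares were 1.09% in vehicle and 1.14% with cyclosporine A. The seed itself, which is not a site, occurred in 0.888% of the vehicle promoter-TSS clusters on the gene strand. The 2 vehicle intervals above overlap, counts are small, and no test compared the annotations.

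Overlap between lists differed between kinds of cluster, which also differed in width and score. Among vehicle clusters of other genes, median widths were 189 bases for rRNA-like, 72 for tRNA-like and 20 for unmatched clusters. Their median scores were 148207, 589 and 46. A wider cluster has more bases that can overlap, and kind, width and score were not separated. At least 1 base on the same strand was shared with the cyclosporine A list by 502 of 1790 vehicle promoter-TSS clusters, and with the vehicle list by 508 of 1047 cyclosporine A clusters (48.5%). Of the pan-AGO clusters, 206 of 588 overlapped the vehicle and 182 (31.0%) the cyclosporine A promoter-TSS clusters. Against the whole other AGO2 list, rRNA-like clusters were shared in 6 of 6 and 7 of 9 cases and tRNA-like clusters in 33 of 47 and 32 of 42. Clusters kin to mitochondrial RNA were shared in 19 of 34 and 26 of 32 cases. Clusters that held a miRNA under a MIR symbol were shared in 5 of 17 and 5 of 21 cases. None of the 17 or 21 overlapped a cluster of the pan-AGO list, with upper interval limits of 18.4% and 15.5%, against 11.4% and 18.2% of clusters of other genes that matched none of the kinds. Those clusters were shared between the AGO2 lists in 381 of 1530 and 380 of 822 cases. That list is the shortest of the 3. Of its 27 MIR clusters, 4 overlapped rRNA-like clusters and 0 a cluster with a miRNA.

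The 10 other genes with the best ranks in all 3 lists were LINC00273, AGBL5, LTK, WBP4, RTP5, PPP1R1B, IREB2, CD320, C18orf63 and ITIH1, of 156 genes in all 3. Several of them had almost no mRNA: PPP1R1B, C18orf63 and ITIH1 had 0 counts over 8 libraries, RTP5 had 1 and LTK 22. No genome was used here, so whether the sequences of these clusters belong to the places the lists give was not checked, and their scores may not describe these genes. The top pan-AGO symbols after LINC00273 were IREB2, CANX, EMC8 and LINC02028. CANX, an endoplasmic reticulum chaperone, rose from 926 ± 68.5 to 1753 ± 81.3 CPM, and NEURL2, among the top symbols with cyclosporine A, fell by 0.44 on the log2 scale, a call lost without cyclosporine A replicate 1 (adjusted p 0.0643).

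The mRNAs of genes with a promoter cluster changed about as often as all mRNAs. Of 1875 symbols of other genes in either AGO2 list, 1563 were found under the same symbol and 100 under another symbol in the mRNA table, and 1218 were tested. Of these 423 rose (34.7%) and 418 fell (34.3%). Over all 12855 tested genes 33.3% rose and 33.5% fell. The median log2 fold change was -0.02 for these genes and -0.00 for all. Among 280 tested genes with a cluster in both AGO2 lists, 89 rose and 102 fell, and among 94 in all 3 lists, 32 and 33. With a cluster on the gene strand 200 rose and 164 fell of 519, and with a cluster on the other strand 168 and 163 of 492.

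The 5 largest rises among these genes were in CPT1A, GADD45A, PPP1R15A, DUSP10 and GEM. CPT1A, which carries fatty acids into mitochondria, had 1.84, 1.29, 2.33 and 1.58 CPM in vehicle and 28.4, 33.5, 36.6 and 26.1 CPM with cyclosporine A, a log2 fold change of 4.13 ± 0.18. Its cluster, of score 29 in the vehicle list, was on the gene strand. GADD45A, a DNA damage and growth arrest gene, went from 35.9, 41.2, 34.7 and 44.7 CPM to 490, 418, 295 and 479 CPM (3.43 ± 0.10). PPP1R15A, which restarts translation after stress, rose by 2.76 ± 0.07. DUSP10, a MAP kinase phosphatase, rose from 39.4 ± 4.07 to 223 ± 25.3 CPM (2.50 ± 0.08), and had a cluster at 1 place in all 3 lists, with scores of 761 in vehicle and 728 with cyclosporine A, 214 and 218 bases before the start. GEM, a small GTPase gene, rose by 2.40 ± 0.13 and had a cluster in all 3 lists.

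The 5 largest falls were in SLC34A2, IGFBP3, CDH6, CRABP2 and EGR1. SLC34A2, a phosphate transporter, went from 77.9, 76.6, 78.3 and 65.7 CPM to 2.06, 2.44, 2.99 and 2.81 CPM (log2 fold change -4.86 ± 0.14), and its vehicle cluster lay 94 bases before the start. IGFBP3, a binding protein of insulin-like growth factors, went from 234, 241, 247 and 224 CPM to 24.7, 23.9, 22.1 and 24.5 CPM (-3.31 ± 0.08) and had a sense cluster at 1 place in all 3 lists, with scores of 126, 152 and 116. CDH6, a kidney cadherin, had a log2 fold change of -2.98 ± 0.07 and CRABP2, which carries retinoic acid, -2.75 ± 0.13. EGR1, an immediate early transcription factor, went from 42.3 ± 3.59 to 7.07 ± 1.70 CPM (-2.59 ± 0.13), with an antisense cluster 37 bases after the start in the cyclosporine A list. The groups of these 10 genes did not overlap, as the choice of genes required, and their adjusted p ran from 2.42e-23 down to 1.61e-41.

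Among 16 genes of miRNA processing and Argonaute function, 7 rose and 3 fell, 62.5% of the list against 66.9% of all tested genes, with a median log2 fold change of 0.23. DICER1 went from 146, 131, 120 and 129 CPM to 239, 241, 271 and 228 CPM (0.89 ± 0.06), and EIF2C2, the symbol used for AGO2, from 18.2 ± 0.57 to 44.2 ± 1.14 CPM (1.28 ± 0.10). EIF2C3, which encodes AGO3, rose by 0.98 ± 0.13 and HSP90AA1, a chaperone that helps to load Argonaute, by 0.50 ± 0.07. DGCR8, the partner of DROSHA, went from 113, 122, 112 and 109 CPM to 53.1, 61.1, 60.05 and 60.1 CPM (-0.96 ± 0.07). Of this list XPO5 and PRKRA had promoter clusters. XPO5, which exports hairpins from the nucleus, rose by 0.57 ± 0.07 with an antisense vehicle cluster, and PRKRA, a partner of DICER1, did not pass (0.18 ± 0.10).

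Host transcripts and translation genes are read here against 33.3% higher and 33.5% lower over all tested genes, and no test compared the lists. Of 27 tested miRNA hosts 6 rose (22.2%) and 14 fell (51.9%), with a median log2 fold change of -0.43. Those with a promoter cluster were HOXB3 (-0.998 ± 0.08), CTDSP1 (-0.73 ± 0.08), SMC4 (-0.65 ± 0.06) and PTK2 (0.26 ± 0.06). For the miRNAs above, the host MIR17HG of miR-19a-3p changed by -0.88 ± 0.22 while that miRNA rose, MIR22HG by -0.43 ± 0.13, MCM7, host of the miR-25 group, by -0.47 ± 0.06 and VMP1, which overlaps MIR21, by -0.62 ± 0.07. These 4 were looked up after values were seen. Of 27 tested snoRNA hosts 19 rose (70.4%) and 2 fell (7.41%), with a median of 0.44, and of 8 snoRNA-binding proteins 3 rose and 0 fell. EPB41L4A-AS1 (1.31 ± 0.11) and RPL5 (0.46 ± 0.06) had promoter clusters and rose, and SNHG15 (0.14 ± 0.10) did not pass. Of 17 translation genes with 5′ terminal oligopyrimidine tracts 16 rose (94.1%) and 0 fell (median 0.54). EIF3H (0.61 ± 0.06) and HNRNPA1 (-0.20 ± 0.11, adjusted p 0.0962) were the members with a cluster.

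The line was checked against epithelial markers. Of 15 markers, 10 passed the filter on low counts, with summed levels of 2527 to 2607 CPM in vehicle and 2204 to 2342 CPM with cyclosporine A, led by PAX8, a kidney transcription factor. Markers of the mature proximal tubule, ANPEP, AQP1, CUBN, LRP2 and SLC34A1, were at 28 counts or fewer over the 8 libraries. Of 13 markers of other cells 7 were at 0 in all libraries, including PTPRC and PECAM1, and their summed level was 14.1 to 20.5 CPM in vehicle and 5.02 to 6.78 CPM with cyclosporine A, mostly COL1A1. Whether that difference bears on any result was not tested.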

How the data were processed

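miRNA and mRNA tables were deposited by the authors as raw whole-number counts per mature miRNA (2586 features) and per gene symbol (23368 features). Each PAR-CLIP list deposited by the authors gives, per the file headers, a position, strand, annotation, symbol, sequence and peak score for each cluster. What the score counts, and which caller made the lists, is not stated in the labels or headers. The submitters' processing notes name build hg19 and, without roles, HTSeq, DESeq2, TopHat, Bowtie, cutadapt and CASAVA 1.8.2. No source used here says whether counting used the strand, and antisense and overlapping genes cannot be told apart.

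The tests used R 4.3.3 and edgeR 4.0.16 on the 4 cyclosporine A and 4 vehicle libraries of each RNA kind (filterByExpr, TMM, quasi-likelihood F test, Benjamini-Hochberg adjustment), after the steps were tested on simulated data. Fold changes are log2 with the standard error from the F statistic, and levels are CPM after TMM with SD. Levels of loci and of arms are CPM of the raw totals. Positions are hg19, counted from 1. RefSeq sequences (GRCh38.p14) were related by name or sequence only. Overlaps used bedtools 2.31.1. Sequences of the list for all Argonaute proteins were not used, because their length did not match the interval for most clusters. Clusters were compared across treatments without a test, since libraries were pooled.

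Named members follow a rule: the 8 MIR, 3 SNOR and 5 other symbols with the highest score per list, called miRNAs with an absolute log2 fold change of at least 0.5 and no overlap, the 5 most abundant miRNAs, 10 genes of all 3 lists, the 5 largest rises and 5 largest falls with at least 50 mean counts, and list members with a cluster. Members and lists were chosen with earlier results of these data known. Seed pairs, further miRNAs in clusters, mature miRNAs tied by name, box letters and some hosts were added after values were seen. Alternatives were DESeq2 1.42.0, upper-quartile scaling, no filter, a replicate block, each library left out, no miR-21-5p, and other match, overlap and score rules.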

Additional observations from a re-analysis of the deposited data

Results flagged for a closer look

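In 56 groups of 4 libraries checked for the named miRNAs and genes, 3 had 1 library apart from the others by Dixon's criterion, which chance flags in about 1 in 20 groups. miR-4521 was at 69.1 CPM in vehicle library 1, against 113.5 to 117.5 CPM in the other vehicle libraries. SLC34A2 was at 65.7 CPM in vehicle library 4, against 76.6 to 78.3 CPM. DGCR8 was at 53.1 CPM in cyclosporine A library 1, against 60.05 to 61.1 CPM. Each of the 3 kept its direction and its call when that library was left out.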

How the results depend on the processing

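With the replicate block, calls over all miRNAs went from 23 higher and 30 lower to 43 and 49, and calls among miRNAs of promoter-TSS loci from 5 and 4 to 9 and 7. Same-numbered libraries correlated in their deviations from the group mean by -0.10 to 0.04 for mRNA and -0.05 to 0.40 for miRNA, and 2 of 8 and 3 of 8 libraries correlated best with their own number, so the numbers were not taken to pair libraries. Leaving out 1 library at a time gave 14 to 29 higher and 15 to 29 lower over all miRNAs, and 4 to 8 and 3 to 5 among members. Fewer miRNAs are tested when members are tied by sequence: whole matches left 0 higher and 1 lower of 8, and runs of at least 16 bases, a rule chosen after seeing the data, 2 and 2 of 27. Matching by the name of the mature miRNA, also chosen after seeing the data, gave 5 and 7 of 74. The share of MIR clusters with a miRNA went from 6% and 2.27% for whole matches to 18.0% and 23.9% for runs of at least 16 bases. SNOR shares became 6.05% and 8.03% among clusters at or above the median score of their list, and the cyclosporine A clusters shared with vehicle 45.1% when an overlap of 0.5 of each cluster was asked for; the cause was not tested. Counts of mRNA calls stayed within 1.5 times under the alternatives run (410 to 429 higher among members with 1 library left out), and no called result reversed. The small uncalled changes of miR-21-5p, miR-30a-5p and let-7a-5p changed sign under some settings. Of 13 called miRNAs and 51 called genes put through the alternatives, 4 and 3 lost their call under at least 1 of them: miR-130b-5p, miR-92a-1-5p, miR-27a-3p, miR-19a-3p, NEURL2, PAX8 and IREB2, the last under 7 of 12. PAR-CLIP lists without replicates or known score units limit every comparison between lists.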
